A study of Mus musculus with 14 samples.

Results

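Guidance genes encode the signals and receptors that steer axons, migrating cells and vessel sprouts. In mouse 4T1 spheroids, 56 of the 19525 genes in the count table carried a semaphorin, plexin, neuropilin, ephrin, Eph, netrin, Unc5, Slit or Robo symbol. They were chosen by symbol, with earlier results of the same libraries known. The fall of *Sema6a* after *Grin2d* silencing was among those results. Of the 56, 55 encode guidance ligands or receptors. The remaining symbol, *Unc50*, shares the letters "Unc5" but names a membrane protein of the Golgi and is not a netrin receptor, so it was kept in the counts and described apart.

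4T1 is a mouse mammary carcinoma line, labeled here as triple-negative breast cancer. Spheroids were grown for 5 days in LLM, a lung-like medium composed after lung interstitial fluid. Cells expressing a non-targeting hairpin were cultured with 700 μM aspartate (ASP shSCR, 4 libraries) or without it (NoASP shSCR, 3 libraries, numbered 2 to 4). Both silenced lines were cultured with 700 μM aspartate only. ASP shGRIN2D (3 libraries) was silenced for *Grin2d*, which encodes an NMDA receptor subunit that binds aspartate. ASP shDHPS (4 libraries) was silenced for *Dhps*, the enzyme that begins the hypusination of the translation factor eIF5A. All cells carried a lentiviral short hairpin vector and were selected as polyclonal populations with puromycin. Neither silenced line was sequenced without aspartate, so the response to aspartate could not be measured in them. RNA came from the cytosolic lysate set aside before polysome fractionation, and the assay was poly(A) mRNA sequencing.

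The guidance families work as ligand and receptor pairs. Semaphorins bind plexins, and the secreted class 3 semaphorins mostly need a neuropilin as co-receptor. Ephrins are tethered to the membrane and signal to Eph receptor tyrosine kinases on the neighboring cell, while netrins act through Dcc and the Unc5 proteins and Slits through Robo receptors. In epithelia and carcinomas the same molecules are known for their roles in cell sorting, adhesion, motility and vessel growth.

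Library totals ranged from 12731123 to 23231378 counts, and the 56 genes together took between 0.197% (ASP shDHPS replicate 1) and 0.313% (ASP shSCR replicate 2) of a library. Both libraries at these ends stood apart for the guidance genes. Among the 35 members with a mean of at least 5 counts per 1000000 (CPM, scaled by TMM), ASP shSCR replicate 2 held the highest of its group's 4 values for 23 members (65.7%), against 35.3% of the 10227 genes at that level. ASP shDHPS replicate 1 held the lowest value of its group for 24 members (68.6%), against 32.5% of the genes at that level. NoASP shSCR replicate 2 was the highest of its 3 libraries for 19 of the 35 (54.3%), against 37.1% of the genes at that level. On the first principal component of all genes, ASP shSCR replicate 2 lay at -45.8 and NoASP shSCR replicate 2 at -33.5, while the other shSCR libraries lay between -14.8 and 9.37. *Dhps* was lower in ASP shDHPS than in ASP shSCR (log2 fold change -1.48, adjusted p = 8.31e-06, edgeR quasi-likelihood test with the Benjamini-Hochberg adjustment). *Grin2d* was counted at 2.46 ± 0.590 CPM (SD, n = 3) in ASP shGRIN2D and 3.60 ± 0.423 CPM (SD, n = 4) in ASP shSCR, which did not pass the test (log2 fold change -0.55, adjusted p = 0.516), so its silencing was not shown by these counts.

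The epithelial label was borne out by its markers. The summed level of *Epcam*, *Cdh1*, *Krt8*, *Krt18*, *Krt19* and *Cldn4*, all 6 of them measured, was 4326 to 4516 CPM in ASP shSCR, 3299 to 3555 in ASP shGRIN2D and 3463 to 4034 in ASP shDHPS. It was thus lower in both silenced lines, and its part in the results below was not tested. Of the 7 fibroblast markers 3 were in the table and summed to 22.9 to 41.7 CPM, nearly all from *Pdgfra*, while *Dcn* never exceeded 1 count. The 3 measured endothelial markers summed to at most 0.867 CPM. The 3 measured leukocyte markers summed to 5.82 to 13.1 CPM in ASP shSCR and 12.6 to 16.9 in ASP shDHPS, almost all from *Cd68*, and *Ptprc* had at most 12 counts. The 3 measured neuron and glia markers summed to 35.1 to 52.7 CPM, almost all from *Mbp*.

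The spheroids expressed a broad but uneven guidance repertoire. Of the 56 members, 35 had a mean of at least 5 CPM over the 4 groups, 17 lay below that, and 4 (*Plxna2*, *Plxnc1*, *Slit1* and *Slit3*) had at most 3 counts in any library and get no fold change. The other 13 genes of these families, among them *Epha3*, *Epha7*, *Ephb1*, *Robo2*, *Unc5c* and *Ntn5*, were not analysed here. To compare levels between genes, CPM was divided by the length of the longest coding transcript. On that scale the highest guidance genes of ASP shSCR were *Plxnb2* at 53.8 ± 5.61 CPM per kb (SD, n = 4), *Epha2* at 51.8 ± 4.40, *Nrp2* at 50.6 ± 11.3, *Sema3f* at 50.0 ± 6.53 and *Ephb4* at 47.6 ± 3.02 CPM per kb. These 5 levels lay within each other's spread and could not be put in order. *Efna1* followed at 42.4 ± 7.10 CPM per kb, *Unc5b* at 38.4 ± 3.59 and *Efnb2* at 28.5 ± 2.46. The list thus held ligands together with their known receptors: Sema3F signals through neuropilin-2, ephrin-A1 through EphA2, and ephrin-B2 through EphB4.

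**Figure D1:**
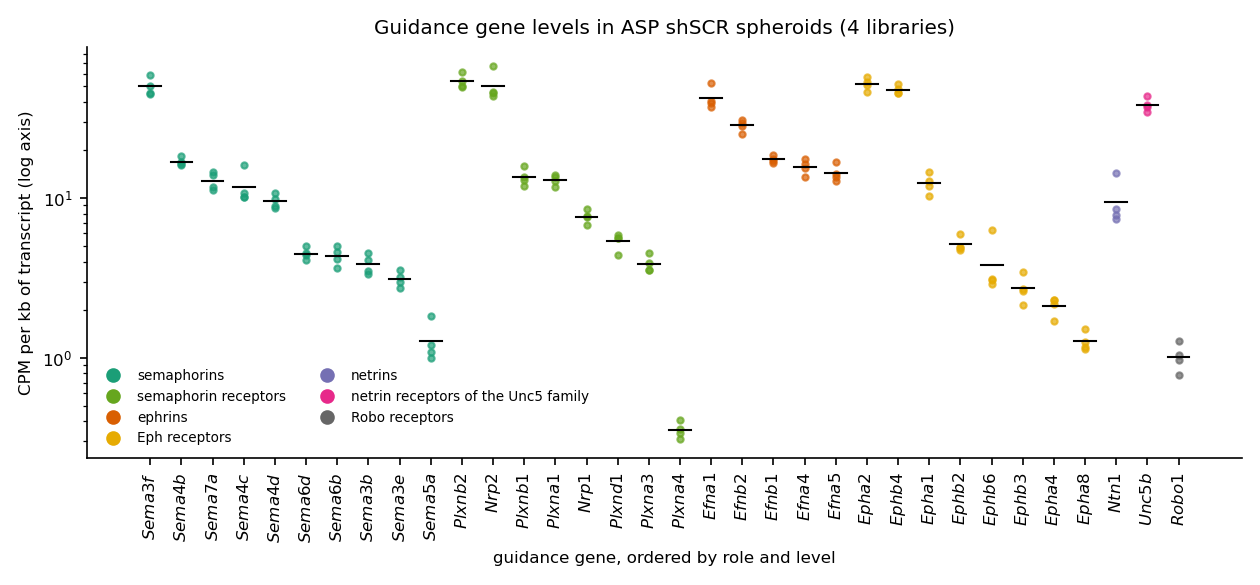
Level of the 34 guidance genes at 5 CPM or more on average in the 4 ASP shSCR libraries, in CPM per kb of the longest coding transcript on a log axis. Points are libraries, bars are means, and colors mark the role of each gene. *Plxnb2*, *Epha2*, *Nrp2*, *Sema3f* and *Ephb4* lead at 47.6 to 53.8 CPM per kb, and *Plxna4* is lowest at 0.355.

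The leading receptors differed in how much they varied between libraries of ASP shSCR. *Nrp2*, the co-receptor for Sema3F, was at 291, 453, 310 and 306 CPM in ASP shSCR replicates 1 to 4, so replicate 2 lay well above the others. *Plxnb2*, a receptor of class 4 semaphorins, was at 327, 400, 351 and 319 CPM. *Epha2*, an Eph receptor frequently active in carcinoma cells, was at 207, 181, 223 and 201 CPM. Both *Plxnb2* and *Epha2* varied less than *Nrp2*.

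Among ligands, *Sema3f* was at 171, 201, 155 and 153 CPM in ASP shSCR, *Sema4b* at 66.5, 72.1, 64.5 and 63.9, *Efnb2* at 136, 121, 148 and 141, and *Efna1* at 60.2, 86.1, 64.6 and 65.7. *Ntn1*, which encodes netrin-1, was at 45.8, 84.1, 43.2 and 50.2 CPM, again with replicate 2 highest. *Unc5b*, its dependence receptor, was at 224, 254, 218 and 204 CPM. Netrin-1 and its receptor were thus both expressed, whereas *Ntn4* reached no more than 2.62 CPM and *Ntn3* 0.470 CPM in any library. Slits were close to absent: *Slit2* was at 0.874, 2.06, 1.32 and 1.73 CPM in ASP shSCR, and the only measured Robo receptor, *Robo1*, at 5.90, 9.58, 7.84 and 7.38 CPM.

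To ask how the guidance genes responded to *Grin2d* silencing, ASP shGRIN2D was compared with ASP shSCR by the edgeR quasi-likelihood test with Benjamini-Hochberg adjustment over all 19525 genes. A gene was called when its adjusted p was under 0.05. Of the 56 members 1 was called, *Sema6a*, which was lower (1.79%). Over all genes 1.16% were called and 0.732% were called lower, so the members' share was near the background. *Sema6a* encodes a transmembrane semaphorin whose known receptors are plexin-A2 and plexin-A4.

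*Sema6a* was at 4.28, 6.52, 5.24 and 5.18 CPM in ASP shSCR replicates 1 to 4 and at 2.06, 1.47 and 2.27 CPM in ASP shGRIN2D replicates 1 to 3. The groups did not overlap. The level rested on 25 to 40 counts in ASP shGRIN2D and on 66 to 117 counts in ASP shSCR. The log2 fold change (± standard error) was -1.46 ± 0.23 (95% interval -1.93 to -0.98, adjusted p = 0.00122, edgeR quasi-likelihood test). NoASP shSCR replicates 2 to 4 were at 5.46, 4.17 and 4.73 CPM. They overlapped with ASP shSCR, although replicate 3 lay just below its lowest library. The call was kept in all 15 alternatives run, with log2 fold changes from -1.58 to -1.29.

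An annotated 3′ UTR of *Sema6a* held the 7-base sequence TCATGAA at 2 places. This sequence was taken from an earlier analysis of these libraries, in which genes lower in ASP shGRIN2D carried it often, so its presence here is a description and not independent evidence. It was searched as written, on the transcript strand, in the 3′ UTRs of all annotated coding transcripts. For each gene the transcript with the most matches counted, while 3′ UTR lengths are those of the longest. Of the 9865 genes at 5 CPM or more, 13.2% carried it, against 46.9% of the 128 lower and 8.62% of the 58 higher genes of the *Grin2d* knockdown with an annotated 3′ UTR. Of 1736 genes with a 3′ UTR of similar length to that of *Sema6a* (0.8 to 1.25 times), 25% held it at least at 1 place and 3.92% at 2 or more. Of the 56 members 10 carried it (17.9%), *Sema6a* being the only one with 2 places. The carriers *Plxna2*, *Sema3d* and *Unc5d* had at most 6 counts in any library and are not shown. To show how the sites of the remaining 6 look, 30-base windows of their 3′ UTRs are given with the shared sequence in capitals, from the GENCODE M21 transcripts (GRCm38):

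*Sema3a*, chr5:13600589-13600618, plus strand: attcatgtgtcTCATGAAaagaacattgtc
*Plxnb1*, chr9:109119871-109119900, plus strand: gatagaagatgTCATGAAaataaaaatgtt
*Sema3e*, chr5:14253354-14253383, plus strand: gcttgttctctTCATGAAacactcactaaa
*Epha4*, chr1:77367304-77367333, minus strand: ttttcttccctTCATGAActttaggtacac
*Epha8*, chr4:136930590-136930619, minus strand: cagataacacgTCATGAAtgaggaggcatg
*Sema5a*, chr15:32693553-32693582, plus strand: ttcttactactTCATGAAgcatctagagac

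None of these 6 genes was called in the *Grin2d* knockdown. Their log2 fold changes were -0.74 for *Sema3a*, -0.26 for *Plxnb1*, -0.24 for *Sema3e*, -0.06 for *Epha4*, 0.07 for *Epha8* and 0.19 for *Sema5a*. Carrying the sequence at a single place therefore went with values on either side of 0. The median log2 fold change was -0.06 for the 5 members with the sequence and a mean of at least 5 CPM and 0.00 for the 30 without it. Over all genes at that level it was -0.06 for the 1298 with it and 0.01 for the 8567 without.

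Including *Sema6a*, 8 of the 56 members had an unadjusted p under 0.05 in the *Grin2d* knockdown (edgeR), against 2040 of 19525 genes. No result is read from this count. *Plxna4*, the gene of a known Sema6A receptor, had the smallest p after *Sema6a*. It was at 4.37, 4.62, 5.29 and 4.01 CPM in ASP shSCR and 2.88, 2.11 and 2.93 CPM in ASP shGRIN2D. Its groups did not overlap, but it did not pass the test (log2 fold change -0.79, 95% interval -1.23 to -0.36, edgeR adjusted p = 0.0741). DESeq2 called it (adjusted p = 0.0226). *Ntn4* (log2 fold change -0.93), *Sema3a* (-0.74) and *Sema6b* (-0.52) had values below 0, and *Nrp1* (0.42), *Plxnd1* (0.38) and *Sema7a* (0.27) had values above 0. Values of 7 of the 56 members (12.5%) did not overlap between the groups, near the 12% of all genes.

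By role, the *Grin2d* knockdown showed 1 of 19 semaphorins lower, with a list median of -0.24 on the log2 scale, and 0 of 11 plexins and neuropilins (median 0.05), 0 of 8 ephrins (-0.02) and 0 of 8 Eph receptors (-0.02) in either direction. The median over all genes was 0. The most abundant receptors had narrow intervals around 0: *Epha2* 0.01 (95% interval -0.23 to 0.26), *Ephb4* -0.04 (-0.27 to 0.19) and *Plxnb2* -0.13 (-0.37 to 0.11).

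**Figure D2:**
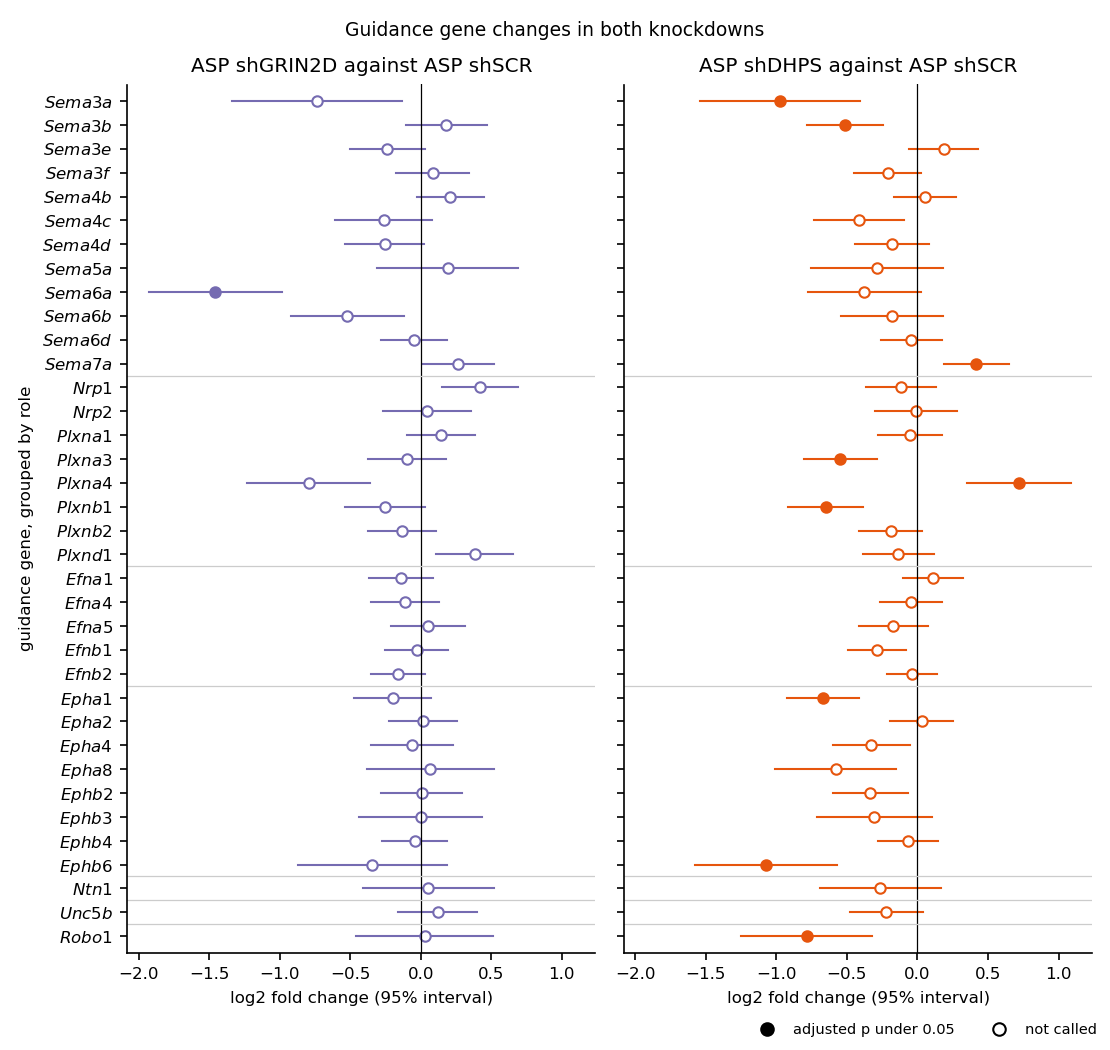
Log2 fold changes with unadjusted 95% intervals (x axis) in ASP shGRIN2D and ASP shDHPS against ASP shSCR for the 36 guidance genes at 5 CPM or more on average or called in any comparison, grouped by role (y axis). Filled points passed the test. *Sema6a* is the only filled point on the left at -1.46, and most Eph receptors and plexins on the right lie below 0.

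More of the guidance genes were called in the *Dhps* knockdown. Compared with ASP shSCR, 10 of the 56 members were called in ASP shDHPS (17.9%), against 4.22% of all genes. Of these, 7 were lower (12.5%, background 2.57%) and 3 were higher (5.36%, background 1.65%). At a mean of at least 5 CPM, 9 of 35 members were called (25.7%), against 6.94% of the genes at that level. The median log2 fold change over the 35 was -0.18, compared with -0.004 over the genes at that level. These counts leaned on single libraries. Without ASP shSCR replicate 2, the highest of its group for 65.7% of the 35, only 2 members were called. The share of all genes called in that fit is not given here, so an excess over it is not shown. Since RNA was taken from whole spheroids, fewer cells expressing a gene and less RNA per cell could not be told apart.

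The lower genes were 2 Eph receptors, 2 plexins, 2 semaphorins and *Robo1*. At 5 CPM or more there were 8 Eph receptors, 8 plexins and neuropilins, 10 semaphorins and 5 ephrins. Of 8 Eph receptors 2 were lower and none higher, with a list median of -0.33. *Epha1*, a receptor of A-type ephrins, was at 42.1, 47.7, 38.7 and 33.9 CPM in ASP shSCR and at 20.9, 29.0, 25.1 and 27.4 CPM in ASP shDHPS. All 4 silenced libraries lay below all 4 controls. Its log2 fold change was -0.67 ± 0.12 (SE, edgeR adjusted p = 0.00354).

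*Ephb6*, an Eph receptor without kinase activity, was at 11.7, 23.7, 10.8 and 11.5 CPM in ASP shSCR and at 6.62, 7.46, 6.05 and 7.31 CPM in ASP shDHPS. The groups did not overlap, although replicate 2 of ASP shSCR was far above the other controls, as was replicate 2 of NoASP shSCR at 21.4 CPM against 9.81 and 10.8. The log2 fold change was -1.07 ± 0.24 (SE, edgeR adjusted p = 0.0125). Without ASP shSCR replicate 2 it was -0.73 and no longer passed (edgeR adjusted p = 0.0574). The call was also lost without ASP shDHPS replicate 3. It was kept when replicate 2 was left out of both shSCR groups.

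The other 6 Eph receptors were not called. *Epha8* (log2 fold change -0.58), *Ephb2* (-0.33) and *Epha4* (-0.33) had unadjusted p under 0.05 but adjusted p of 0.121, 0.151 and 0.170 (edgeR). The 2 most abundant, *Epha2* at 166, 209, 216 and 238 CPM in ASP shDHPS and *Ephb4* at 151, 218, 209 and 213 CPM, overlapped with the controls. Their log2 fold changes were 0.03 (95% interval -0.19 to 0.25) and -0.06 (-0.28 to 0.15). Of the 8 ephrins none was called, with a list median of -0.09, and *Efnb1* had the smallest p (log2 fold change -0.29, edgeR adjusted p = 0.109). An alternative fit with the replicate number as a block did call *Epha8*, *Ephb2* and *Efnb1*.

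**Figure D3:**
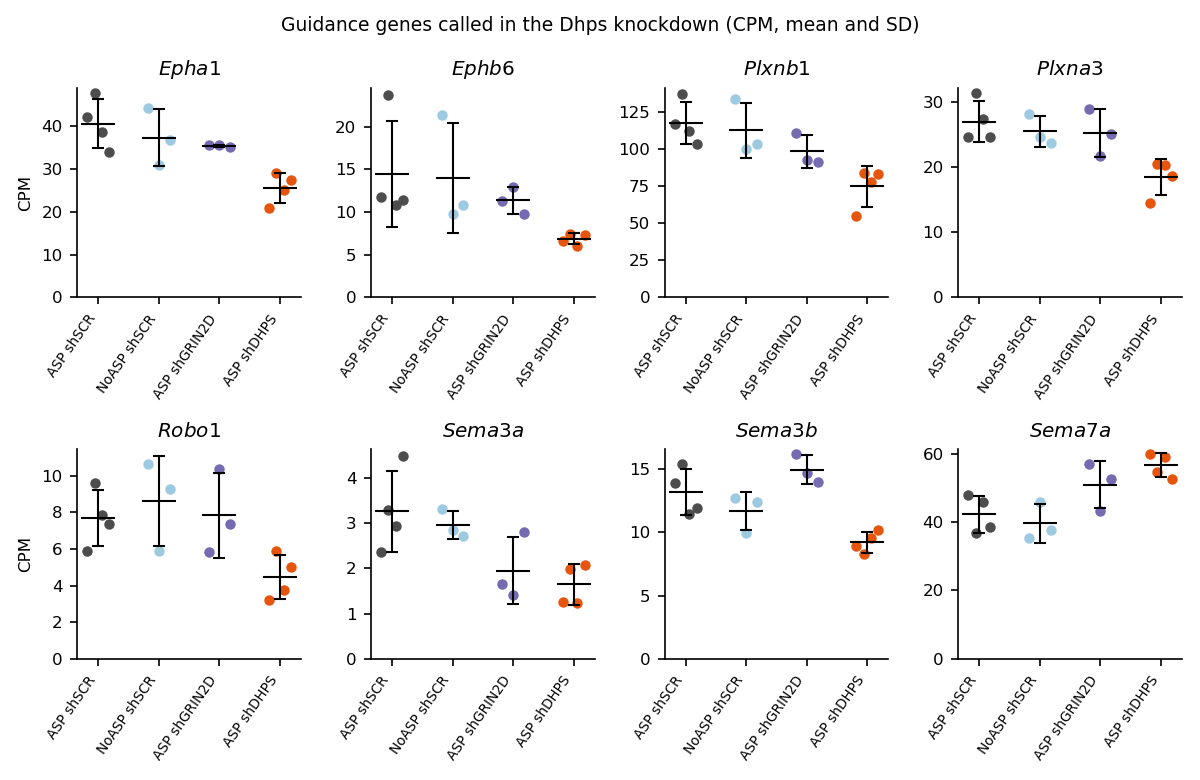
CPM (y axis, from 0) of 8 guidance genes called in the *Dhps* knockdown, in every library of the 4 groups (x axis). Points are libraries and bars are mean and SD. In ASP shDHPS all points lie below those of ASP shSCR for 7 genes and above them for *Sema7a*. The genes shown were chosen by their call in this comparison. Of all 56 members, 13 (23.2%) did not overlap between these groups, against 11.1% of all genes. ASP shSCR replicate 2 stands out for *Ephb6* at 23.7 CPM.

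Of 11 plexins and neuropilins, 2 were lower and 1 was higher. *Plxnb1*, the receptor of Sema4D, was at 117, 137, 112 and 103 CPM in ASP shSCR and at 54.6, 83.8, 77.7 and 83.3 CPM in ASP shDHPS. The groups did not overlap, and replicate 1 of ASP shDHPS was the lowest. The log2 fold change was -0.65 ± 0.13 (SE, edgeR adjusted p = 0.00509). *Epha1* and *Plxnb1* kept their calls in all 16 alternatives run for this comparison. Either gene overlaps another gene of the table on the opposite strand, *Zyx* over 236 bases and *Gm7628* over 257 bases. The methods name a stranded library kit, but whether counting used the strand is not given in the sources used here.

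*Plxna3*, a partner of neuropilins in class 3 semaphorin receptors, was at 24.5, 31.4, 27.3 and 24.7 CPM in ASP shSCR and at 14.6, 20.4, 20.3 and 18.6 CPM in ASP shDHPS. The groups did not overlap (log2 fold change -0.55, edgeR adjusted p = 0.0131). The call was lost only without ASP shSCR replicate 2, where the adjusted p was 0.0527. *Robo1*, the Slit receptor, was at 5.90, 9.58, 7.84 and 7.38 CPM in ASP shSCR and at 3.20, 5.86, 3.78 and 5.02 CPM in ASP shDHPS. Its groups were parted by a small gap, and its call was at the threshold (log2 fold change -0.79, edgeR adjusted p = 0.0496).

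*Plxna4* moved the other way. It was at 7.46, 6.0, 7.13 and 9.56 CPM in ASP shDHPS, above all 4 libraries of ASP shSCR, the highest of which was 5.29 CPM. The log2 fold change was 0.72 ± 0.18 (SE, edgeR adjusted p = 0.0228). NoASP shSCR replicate 3, at 6.38 CPM, lay within the range of ASP shDHPS. The call was lost without ASP shDHPS replicate 4 and without ASP shSCR replicate 1, 2 or 4, with log2 fold changes from 0.58 to 0.81 among the libraries left out.

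Among 19 semaphorins 2 were lower and 1 was higher. *Sema3a*, a secreted repellent, was at 2.36, 3.29, 2.94 and 4.48 CPM in ASP shSCR and at 1.26, 2.00, 1.24 and 2.08 CPM in ASP shDHPS, from 23 to 39 counts in the silenced line (log2 fold change -0.97, edgeR adjusted p = 0.0441). *Sema3b*, a secreted class 3 semaphorin, was at 13.9, 15.4, 11.4 and 11.9 CPM in ASP shSCR and at 8.88, 8.26, 9.56 and 10.1 CPM in ASP shDHPS (log2 fold change -0.51, edgeR adjusted p = 0.0252). In both genes only a small gap parted the groups.

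*Sema7a*, a semaphorin anchored to the membrane by a lipid, was at 48.0, 36.8, 45.7 and 38.5 CPM in ASP shSCR and rose to 59.9, 54.7, 58.9 and 52.5 CPM in ASP shDHPS (log2 fold change 0.42, edgeR adjusted p = 0.0338). All 4 silenced libraries lay above all controls. *Unc50*, the symbol that is no guidance receptor, was at 45.2, 41.4, 43.5 and 42.0 CPM in ASP shSCR and 55.2, 52.2, 55.8 and 49.1 CPM in ASP shDHPS, and its call was at the threshold (log2 fold change 0.30, edgeR adjusted p = 0.0494).

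Single libraries weighed on the count of calls. Leaving out 1 library at a time left between 2 and 9 calls among the members. It was 2 without ASP shSCR replicate 2 (*Epha1* and *Plxnb1*), 4 without ASP shDHPS replicate 3, and 5 without ASP shDHPS replicate 1 or without ASP shSCR replicate 4. It was 6 without ASP shDHPS replicate 2, and 5 when replicate 2 was left out of both shSCR groups. Over the 16 alternatives, calls were lost most often by *Unc50* (12), *Robo1* (10) and *Sema3a* (9), then by *Sema3b* (6), *Sema7a* (6), *Plxna4* (4), *Ephb6* (2) and *Plxna3* (1). None of the 10 called members changed sign. The share of all genes called in each of these fits is not given here. Whether the members' share stayed above it is therefore not shown.

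Transcript length moved with the *Dhps* comparison. At the level of 5 CPM or more, genes with a longest coding transcript over 5000 bases had a median log2 fold change of -0.14, and 8.45% were called lower and 0.591% higher. Genes under 2500 bases had a median of 0.08, with 1.91% called lower and 4.56% higher. Guidance transcripts were long, with a median of 4713 bases for the members at that level, compared with 3227 bases over the genes. Within the same length classes the members' median was -0.22 for the 15 over 5000 bases, 3 of which were lower and 1 higher. It was -0.18 for the 17 between 2500 and 5000 bases, again with 3 lower and 1 higher, where all genes had a median of -0.01 and 3.83% lower. After each library was corrected for its trend with length, 7 of the 10 calls were kept and none was gained. *Robo1*, *Sema3a* and *Unc50* lost theirs, and *Plxna4*, the longest, was at a log2 fold change of 0.98.

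**Figure D4:**
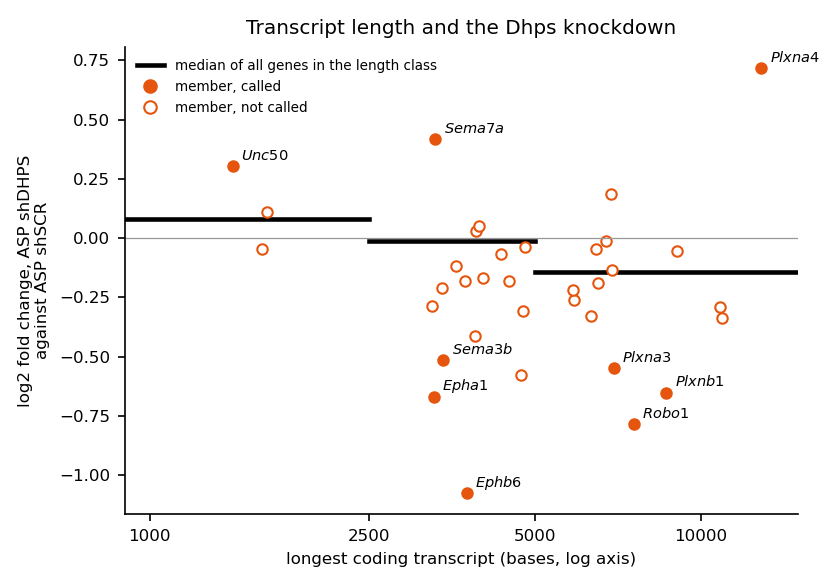
Log2 fold change in ASP shDHPS against ASP shSCR (y axis) by the longest coding transcript (x axis, log scale) for the 35 members with a mean of at least 5 CPM. Filled points were called, and black bars are the medians of all genes under 2500 bases (0.08), from 2500 to 5000 (-0.01) and over 5000 bases (-0.14). *Plxna4* lies highest at 0.72, although its transcript is the longest.

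The remaining lists held few calls. *Ntn1* was at 28.4, 51.5, 45.7 and 60.5 CPM in ASP shDHPS (log2 fold change -0.26, 95% interval -0.69 to 0.17) and *Unc5b* at 134, 218, 189 and 233 CPM (-0.22, -0.48 to 0.04), both overlapping with the controls. *Plxnb2* was at 228, 333, 320 and 345 CPM (-0.19, -0.41 to 0.04), *Nrp2* at 257, 379, 316 and 399 CPM (-0.01, -0.30 to 0.28) and *Sema3f* at 114, 174, 141 and 158 CPM (-0.21, -0.45 to 0.03). For each of these 5 genes the lowest library was ASP shDHPS replicate 1.

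Since both knockdowns were set against the same ASP shSCR libraries, their difference was tested directly by comparing ASP shDHPS with ASP shGRIN2D. Of the 56 members 5 were called (8.93%), against 2.82% of all genes. *Plxna4* and *Sema6a* were higher in ASP shDHPS (3.57%, background 1.2%), and *Nrp1*, *Plxnd1* and *Sema3b* were lower (5.36%, background 1.62%). The low level of *Sema6a* in these ASP shGRIN2D libraries was known when the members were chosen. Its call, and the shares that include it, are therefore not independent of that choice.

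*Plxna4* differed most, with 6.0 to 9.56 CPM in ASP shDHPS and 2.11 to 2.93 CPM in ASP shGRIN2D (log2 difference 1.51, standard error 0.21, edgeR adjusted p = 0.000133). The shSCR libraries, from 4.01 to 6.38 CPM, lay between, overlapping only ASP shDHPS. This difference passed in all 14 alternatives run. *Sema6a* was at 3.10, 4.33, 4.10 and 4.80 CPM in ASP shDHPS, above all 3 libraries of ASP shGRIN2D (log2 difference 1.08, standard error 0.23, edgeR adjusted p = 0.00992). Compared with ASP shSCR it did not pass in ASP shDHPS (log2 fold change -0.38, 95% interval -0.78 to 0.03, adjusted p = 0.294). The difference was 0.92 with an adjusted p of 0.0787 without ASP shGRIN2D replicate 2.

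**Figure D5:**
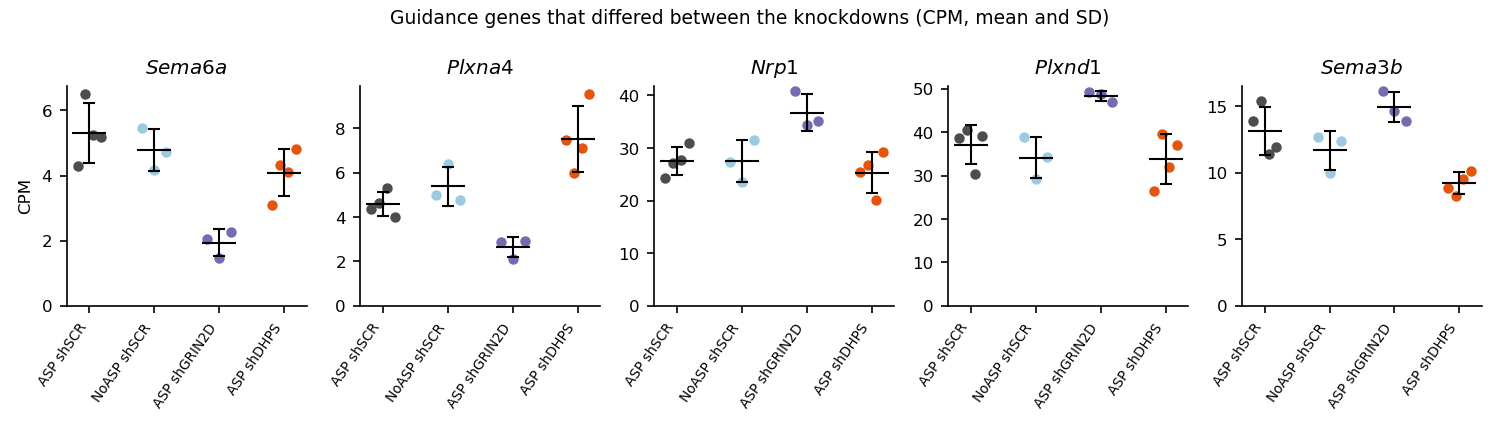
CPM (y axis, from 0) of the 5 guidance genes that differed between ASP shDHPS and ASP shGRIN2D, in every library of the 4 groups (x axis). Points are libraries and bars are mean and SD. *Sema6a* is lowest in ASP shGRIN2D at 1.47 to 2.27 CPM, *Plxna4* parts both knockdowns to either side of ASP shSCR, and *Nrp1* and *Plxnd1* are highest in ASP shGRIN2D.

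*Nrp1* and *Plxnd1*, whose products form receptors for class 3 semaphorins in vessels, shared a pattern. *Nrp1* was at 24.4, 27.2, 27.7 and 30.9 CPM in ASP shSCR, 40.8, 34.3 and 35.1 in ASP shGRIN2D, and 25.4, 26.7, 20.1 and 29.1 in ASP shDHPS (log2 difference -0.54, edgeR adjusted p = 0.0227). *Plxnd1* was at 38.6, 40.4, 30.5 and 39.0 CPM in ASP shSCR, 49.3, 48.8 and 47.0 in ASP shGRIN2D, and 26.5, 39.6, 32.1 and 37.0 in ASP shDHPS (log2 difference -0.52, edgeR adjusted p = 0.0309). For both genes ASP shGRIN2D lay above all other libraries of the series, yet neither was called against ASP shSCR (edgeR adjusted p = 0.149 and 0.217). *Nrp1* was called there when only the 2 groups compared were fitted. *Sema3b*, at 16.2, 14.7 and 13.9 CPM in ASP shGRIN2D, was the third lower gene (log2 difference -0.70, edgeR adjusted p = 0.00583). The calls of *Nrp1* and *Plxnd1* were lost without ASP shGRIN2D replicate 1 or 3 or ASP shDHPS replicate 3, that of *Plxnd1* also without ASP shGRIN2D replicate 2 or ASP shDHPS replicate 1, and that of *Sema3b* without ASP shGRIN2D replicate 1.

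Aspartate supplementation, ASP shSCR compared with NoASP shSCR, gave no called guidance gene. Of the 56 members 0 passed, and 0 of all genes did (0%), by the edgeR quasi-likelihood test as well as by DESeq2. With the replicate number as a block within the 7 shSCR libraries, 64 genes were called, and 0 of them were members. At an unadjusted p under 0.05 there were 1 member and 424 genes. The member was *Sema3c*, a secreted semaphorin, at 1.44, 1.89, 2.21 and 2.51 CPM in ASP shSCR and 2.46, 2.74 and 3.67 CPM in NoASP shSCR, with overlapping groups (log2 fold change -0.57, edgeR adjusted p = 1). No member was separate between the groups, while 2.71% of all genes were.

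For the abundant members the aspartate comparison was precise in the main fit, which had no replicate block. The log2 fold change was -0.04 for *Plxnb2* (95% interval -0.28 to 0.20), 0.08 for *Nrp2* (-0.24 to 0.39), -0.05 for *Epha2* (-0.30 to 0.19), 0.05 for *Ephb4* (-0.18 to 0.28), 0.00 for *Efnb2* (-0.19 to 0.19) and 0.04 for *Unc5b* (-0.23 to 0.32). *Sema6a* was at 0.15 (-0.28 to 0.58) and *Plxna4* at -0.23 (-0.63 to 0.17). Smaller shifts than these intervals allow were not detectable with 4 and 3 libraries.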

How the data were processed

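Poly(A) RNA of cytosolic lysates was sequenced in 14 libraries. Per the labels and methods, the authors trimmed reads (Trim Galore 0.6.6, FastQC 0.11.9), mapped them to GRCm39 (STAR 2.6.1), quantified genes (Salmon 1.4.0) and rounded the estimates to whole numbers. They deposited these counts, without normalization, for genes passing a filter on expression; genes below it were not analysed here. Here the deposited counts of 19525 genes were scaled by TMM and fitted in 1 model over the 4 groups (R 4.3.3, edgeR 4.0.16, limma 3.58.1, quasi-likelihood test, Benjamini-Hochberg adjustment over all genes, called under 0.05). DESeq2 1.42.0 served as an alternative. CPM are TMM-scaled counts per 1000000, and log2 CPM used a prior count of 2. All 14 columns matched a sample. The script was tested on simulated counts. Intervals are 95% and unadjusted.

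The members and the role lists were chosen with earlier results of these data known. Values by library are given for members called in any comparison and for most of the 2 most abundant of each role list. They cover the groups that a passage describes. The other members are given by counts and ranges. Those with at most 3 counts in every library get no fold. Transcript lengths and 3′ UTRs came from GENCODE M21 (GRCm38) and matched all 56 members.

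Replicates are independent spheroid pellets per the methods. No 2 libraries were duplicates. Replicate numbers of ASP shSCR and NoASP shSCR paired the libraries (correlation of same-numbered deviations 0.513, 0.287 and 0.196). In the other comparisons not every pair exceeded 0.1. The main model has no block in any comparison, aspartate included, and blocked fits were run as alternatives.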

Additional observations from a re-analysis of the deposited data

Results flagged for a closer look

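In groups of 4 libraries, a library was marked when its gap to the nearest other exceeded Dixon's 95% limit. Of 54 groups of member values tested, 4 had such a library, and chance gives about 1 in 20.

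*Nrp2* was at 453 CPM in ASP shSCR replicate 2 and at 291 to 310 in the other 3 libraries. *Ephb6* was at 23.7 CPM in the same library and at 10.8 to 11.7 in the others. *Ephb4* was at 151 CPM in ASP shDHPS replicate 1, compared with 209 to 218 in the rest of its group. *Unc5d* was at 0.049 CPM in ASP shSCR replicate 3 and at 0 in the other 3, which is a single count.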

How the results depend on the processing

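Values under the alternatives were computed for the called members and for *Plxna4* in the *Grin2d* and *Sema6a* in the *Dhps* knockdown, and none changed sign. The counts of called members under the alternatives follow, and only some of them moved by over 1.5 times. They are given without the share of all genes called under the same setting, so they cannot be set against a background. DESeq2 called 2 members in the *Grin2d* knockdown (main count 1) and 9 between the knockdowns (5). RLE size factors, library size alone and a filter on low counts (filterByExpr) kept all counts within 1.5 times. A fit on only the 2 groups compared called 2 members in the *Grin2d* knockdown, 8 in the *Dhps* knockdown and 8 between the knockdowns. Correction for transcript length, chosen after seeing the data, called 1, 7, 0 and 7 in the *Grin2d*, *Dhps*, aspartate and between-knockdown comparisons. Leaving out replicate 2 of both shSCR groups, also chosen afterward, left 5 calls in the *Dhps* knockdown (10). Leaving out 1 library gave 1 call each time in the *Grin2d* knockdown, 2 to 9 calls in the *Dhps* knockdown, 0 each time for aspartate and 2 to 6 between the knockdowns. The cause was not tested. With the replicate number as a block the counts were 4 (adding *Nrp1*, *Plxna4* and *Plxnd1*), 14 (adding *Efnb1*, *Epha8*, *Ephb2* and *Sema4c*), 0 and 16. In the knockdown comparisons not every same-numbered pair deviated together (correlations -0.119 to 0.0405 for ASP shGRIN2D, 0.0517 to 0.261 for ASP shDHPS, 0.00393 to 0.229 between them), and 1 of 6, 5 of 8 and 2 of 6 libraries correlated best with their own number. The paired aspartate fit, also within the 7 shSCR libraries, changed no call among the members. Genes with few counts, such as *Sema6a* and *Sema3a*, limit what differences can be seen.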

Other observations

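Genes that act beside the guidance families but carry other symbols were described from lists of partners. Of 11 measured further guidance ligands and receptors, *Flrt3*, a membrane protein that binds Unc5 receptors, was called in the *Grin2d* knockdown, where it rose from 52.2 to 73.1 CPM (log2 fold change 0.49, edgeR adjusted p = 0.00563). None was called in the *Dhps* knockdown or with aspartate. Between the knockdowns, *Flrt3* (log2 difference -0.34) and *Rgma*, a ligand of neogenin (-0.68), were lower in ASP shDHPS (edgeR adjusted p = 0.0396 and 0.00731). Over all genes 1.16% were called in the *Grin2d* knockdown and 2.82% between the knockdowns. With 11 genes on the list, no share is read from these calls.

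Of 48 measured signaling partners, 0 were called in the *Grin2d* knockdown and 3 in the *Dhps* knockdown, where 4.22% of all genes and 6.94% of those at 5 CPM or more were called, so their share was near the background. *Nck2*, an adaptor that links Eph receptors and ephrins to the actin skeleton, fell from 97.8 to 67.8 CPM (log2 fold change -0.53, edgeR adjusted p = 0.000506). *Rap1b*, a small GTPase (0.33), and *Cfl1*, the actin-severing cofilin (0.31), rose (edgeR adjusted p = 0.0314 and 0.0422). Between the knockdowns 2.82% of all genes were called, and 4.63% of those at 5 CPM or more. Among the partners, *Rnd1*, a GTPase that binds plexins, was higher in ASP shDHPS there (log2 difference 0.78). *Tiam1*, a Rac activator (-0.61), and *Nck2* (-0.64) were lower (edgeR adjusted p = 0.00248, 0.0114 and 8.82e-05 for *Rnd1*, *Tiam1* and *Nck2*). With aspartate none was called by edgeR.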
